A study of Mus musculus with 4 samples.

Results

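The microRNAs (miRNAs) mmu-miR-221-3p and mmu-miR-222-3p are the guide strands of the cluster of miR-221 and miR-222, and both were taken by name from the 1265 mouse miRNA probes of the array. They were chosen because the cluster is known to respond to bile acids and inflammation and has been reported in the progression of Barrett's esophagus. The choice was made by name, with earlier results of these data known. Each of the 2 miRNAs had 1 probe, spotted once, in blocks 15 and 31 of the array. Their probes were read in esophagus and in serum of L2-IL-1β mice aged 28 or 46 weeks, with 1 array for each of the 4 groups. In this strain a promoter of Epstein-Barr virus that is active in squamous epithelium drives human interleukin-1β in the esophagus, and inflammation and a columnar lining resembling Barrett's esophagus follow. All groups carry the transgene and the disease label Barrett's esophagus, were kept under specific-pathogen-free conditions. The sources used here do not give how many mice stand behind each RNA sample. Tissue and serum RNA were extracted with different kits, and effects of kit and of sample type cannot be told apart. A single array per group allows no test, and no difference could be checked in a replicate.

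A miRNA pairs with target messenger RNAs mainly through its seed, bases 2 to 8 from the 5′ end, and lowers their translation and stability. The hairpins of miR-221 and miR-222 lie next to each other on the X chromosome and are thought to be cut from a shared primary transcript. In human cells both guide strands repress the cell cycle inhibitor CDKN1B (p27) and the receptor KIT, and bile acids have been reported to raise them and to lower the intestinal transcription factor CDX2 in human esophageal cells. In blood vessels they are known from endothelium and smooth muscle.

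The sequences are shown because both guide strands carry the same seed and the probes must tell them apart. They are RefSeq sequences on GRCm38.p6, which lists 3 mature mouse miRNAs with this seed, among 1738 mature entries. Of the 5 array probes for the cluster and its seed, 4 matched an entry, and miR-222-5p is named only. Capitals mark bases 2 to 8.
mmu-miR-221-3p: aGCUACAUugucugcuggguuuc
mmu-miR-222-3p: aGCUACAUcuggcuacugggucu
mmu-miR-1928: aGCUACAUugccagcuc
mmu-miR-221-5p: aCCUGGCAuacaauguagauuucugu

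Counted from the 5′ end without gaps, miR-221-3p and miR-222-3p share their first 8 bases and 11 of 23 positions in all. That count understates their likeness beyond the seed, since both carry the run cugggu near the 3′ end at shifted positions. Whether either probe also binds the other strand was not tested. The shorter miR-1928 shares its first 10 bases with miR-221-3p and 14 of 17 positions, against 8 of 17 positions with miR-222-3p. The strand miR-221-5p, from the other arm of the miR-221 hairpin, has the unrelated seed CCUGGCA.

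The hairpins are shown with the guide strand in capitals, which in both lies on the 3′ arm.
Mir221: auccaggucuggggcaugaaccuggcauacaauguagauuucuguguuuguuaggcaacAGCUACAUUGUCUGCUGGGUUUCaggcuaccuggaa
Mir222: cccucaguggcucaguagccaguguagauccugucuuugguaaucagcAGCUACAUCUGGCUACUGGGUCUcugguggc

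Both hairpins are on the minus strand, Mir221 at chrX:19146294-19146388 and Mir222 at chrX:19146893-19146971, with 504 bases between them, which places Mir222 upstream. Within them, miR-221-3p lies at chrX:19146307-19146329 and miR-222-3p at chrX:19146901-19146923. The hairpin of miR-1928 is elsewhere, and its mature strand lies at chr1:74206562-74206578 on the minus strand. The array files give no coordinates.

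Levels are given as net signal, the median intensity of the spot minus the mean of the 1664 BLANK spots of the same array, in arbitrary linear units. The net signal of a probe depends on its sequence as well as on the amount of RNA, so that levels were compared for the same probe between arrays. The spot-noise SD beside a value joins the scatter of the 97 No Probe spots to the variation of the 16 spike-in spots, and it covers no variation between mice, extractions or hybridisations. A miRNA counted as detected when its net signal exceeded 2 SD of the BLANK spots, and 67.4% to 79.1% of the miRNA probes did so on the 4 arrays. That limit was lenient, since 39.2% to 77.3% of No Probe spots passed it too, and values near it are read against the No Probe spots. The markers miR-205-5p of squamous epithelium and miR-451a of erythrocytes differed widely between the sample types. Squamous miR-205-5p stood at 1429 and 1508 net units in esophagus against 35.4 and 179 in serum at 28 and 46 weeks. Erythrocyte miR-451a stood at 86.9 and 88.5 against 36871 and 23648. Hepatocyte miR-122-5p kept no such order, at 20.8 and 107 in esophagus against 591 and 70.0 in serum.

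In serum, both guide strands were higher at 46 than at 28 weeks, and in esophagus both stayed near their earlier level. The net signal of mmu-miR-221-3p was 122 ± 4.43 (spot-noise SD) in esophagus at 28 weeks and 131 ± 7.18 at 46 weeks, and in serum it was 249 ± 13.7 at 28 weeks and 433 ± 23.9 at 46 weeks. For this strand the esophageal arrays lay lowest and the serum array at 46 weeks highest. The net signal of mmu-miR-222-3p was 22.4 ± 2.14 and 22.8 ± 2.26 in esophagus and 88.3 ± 5.04 and 158 ± 8.98 in serum at 28 and 46 weeks. Both strands had the same order of levels, in which the intervals of 1 spot-noise SD touched or overlapped only between the esophageal arrays. No spot without probe reached either strand on any of the 4 arrays.

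**Figure D1:**
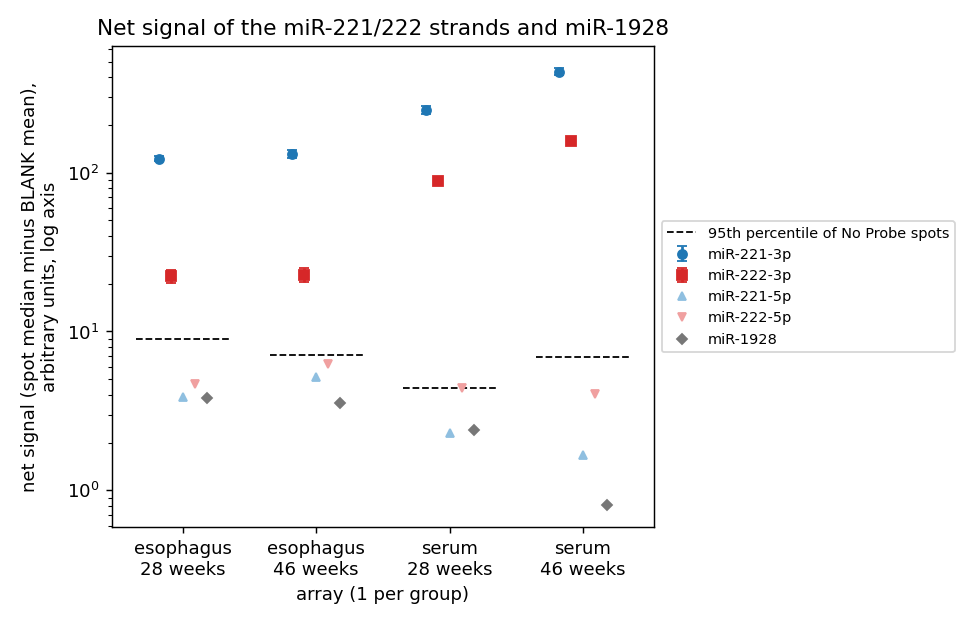
Net signal (vertical log axis, arbitrary units) of the guide strands miR-221-3p and miR-222-3p, the other strands miR-221-5p and miR-222-5p and the seed relative miR-1928 on the 4 arrays (horizontal axis). Error bars on the guide strands are the spot-noise SD and are about the size of the symbols, and dashed lines mark the 95th percentile of No Probe spots. Both guide strands lie above the dashed line on every array and highest in serum at 46 weeks, while the other strands lie at or near the No Probe level.

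The other strands of the hairpins gave no usable level. The net signal of miR-221-5p was 3.90 and 5.17 in esophagus and 2.29 and 1.68 in serum at 28 and 46 weeks, and 19 to 72 of the 97 No Probe spots were as bright or brighter. For miR-222-5p it was 4.69 and 6.24 in esophagus and 4.40 and 4.01 in serum, with 5 to 54 No Probe spots as bright or brighter. At these intensities a change of either strand was not detectable.

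The seed relative miR-1928 also stayed at background, at 3.83 and 3.56 net units in esophagus and 2.41 and 0.805 in serum, with 35 to 87 No Probe spots as bright or brighter.

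For the differences between arrays, each array was divided by the median net signal of the miRNAs detected on both arrays compared. On that scale miR-221-3p was 1.97-fold higher in serum at 46 than at 28 weeks, a log2 difference of 0.98 (spot-noise SD 0.11). The increase of miR-222-3p was 2.03-fold, a log2 difference of 1.02 (spot-noise SD 0.12). Thus 1 of the 2 strands passed a line of 2-fold and the other fell just short of it, while 7.79% of the 822 miRNAs detected on both serum arrays had an increase of at least 2-fold and 3.89% a decrease of that size. These were 64 and 32 miRNAs, a balance that turned with the scale, to 39 and 55 without scaling, 5 and 245 on spike-in spots and 31 and 89 in the authors' deposited table. Larger increases were found for 60 of the 822 miRNAs in the case of miR-222-3p and for 69 in the case of miR-221-3p. Among the 206 brightest of these miRNAs, which include both strands, 20 and 21 had larger increases.

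In esophagus the log2 difference of 46 minus 28 weeks was -0.15 (spot-noise SD 0.09) for miR-221-3p. For miR-222-3p it was -0.23 (spot-noise SD 0.20). Neither strand passed 2-fold in either direction, and of the 843 miRNAs detected on both esophageal arrays 1.42% had an increase of at least 2-fold and 1.54% a decrease of that size. The counts of 12 and 13 became 30 and 6 without scaling and 18 and 28 in the authors' deposited table. Before scaling, the esophageal signals were 1.07-fold and 1.02-fold higher at 46 weeks, so that the sign of these small differences came from the scaling. In bulk tissue, fewer cells of a type and less RNA per cell cannot be told apart.

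**Figure D2:**
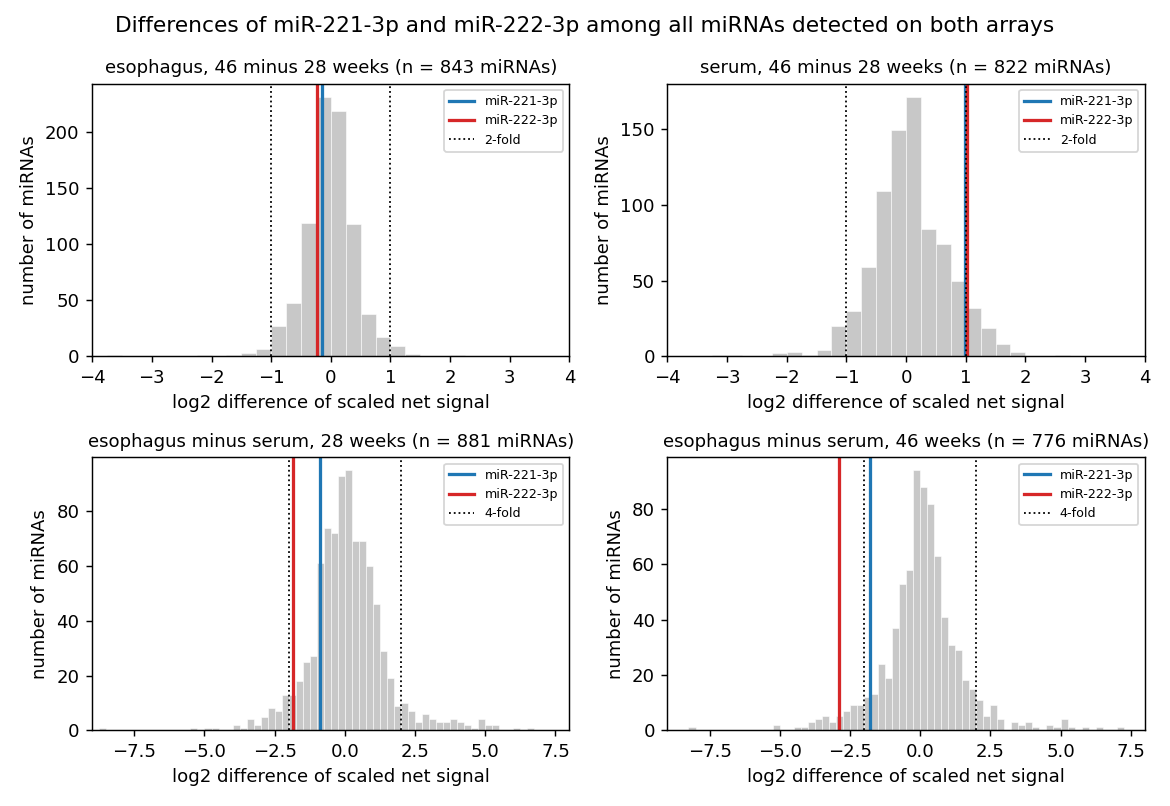
Histograms of the log2 difference of scaled net signal (horizontal axis) over the miRNAs detected on both arrays of each comparison (vertical axis, number of miRNAs), with vertical lines for miR-221-3p and miR-222-3p and dotted lines at 2-fold (ages) or 4-fold (sample types). In serum the lines of both strands fall at the 2-fold line, at 0.98 and 1.02, and in esophagus inside the main body of the histogram.

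The size of the serum increase depended on the scale. The serum arrays differed in general brightness: the spike-in spots, for which the sources used here do not state the step of addition, averaged 9324 net units at 28 weeks and 14018 at 46 weeks. Scaled to these spots, the median of all 822 serum miRNAs was -0.72, and the log2 differences of miR-221-3p and miR-222-3p were 0.21 and 0.25. Without any scaling the strands were 1.74-fold and 1.79-fold higher. In the authors' deposited value table, which puts the median of the listed miRNAs of every array at 25, miR-221-3p went from 582.5 to 929.4 and miR-222-3p from 206.9 to 340.1 in serum, log2 differences of 0.67 and 0.72. The same table gave 300.5 and 269.3 for miR-221-3p and 54.9 and 46.8 for miR-222-3p in esophagus.

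The serum differences were positive for both strands under all 10 ways of scaling and background correction, while 2-fold was passed by miR-221-3p in 2 and by miR-222-3p in 4 of them. Relative to the median of all miRNAs they were 0.93 and 0.97, a distance that by construction is the same for the 5 settings that only multiply an array by 1 factor. Under the other settings that distance was 0.87 to 1.04 for miR-221-3p and 0.59 to 1.08 for miR-222-3p. In esophagus the strands lay 0.14 and 0.21 below the median of all miRNAs under the same 5 settings, and 0.05 to 0.24 and 0.17 to 0.25 below it under the others.

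**Figure D3:**
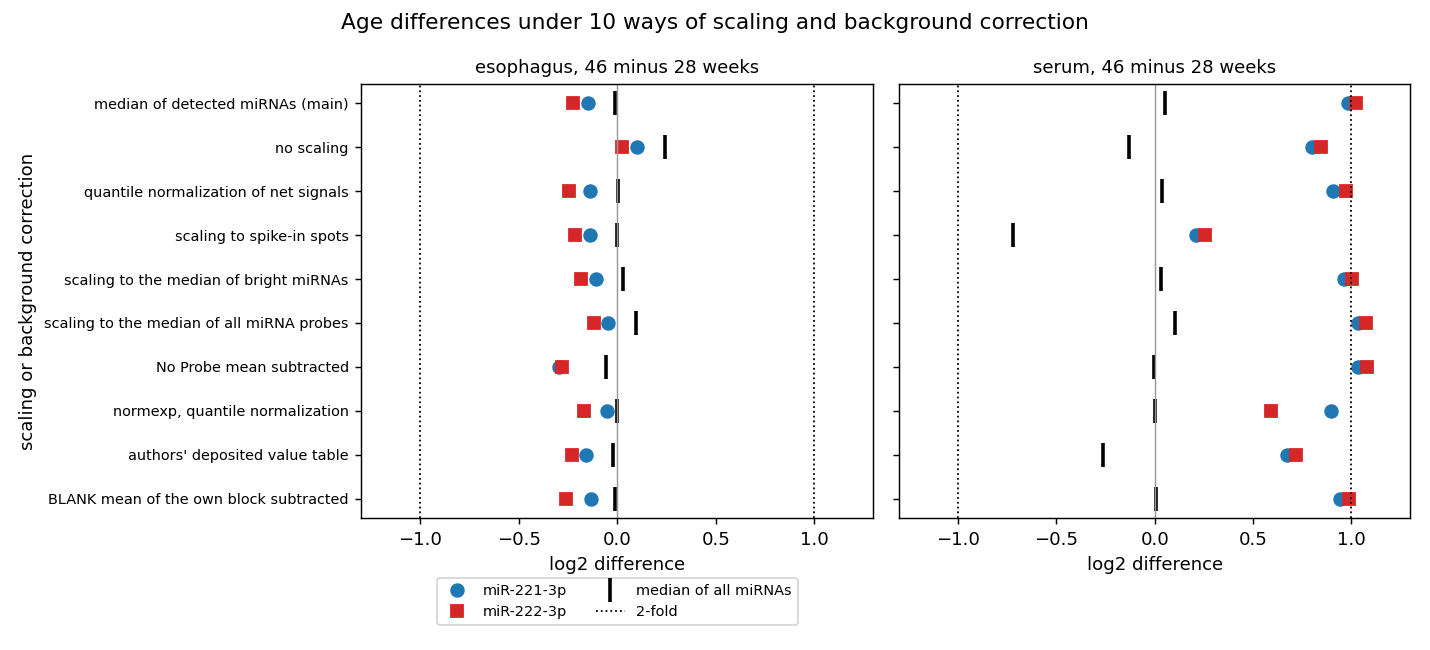
Log2 differences of 46 minus 28 weeks (horizontal axis) of miR-221-3p and miR-222-3p in esophagus and serum under 10 ways of scaling and background correction (vertical axis), with the median of all miRNAs compared as a black tick and dotted lines at 2-fold. With spike-in scaling in serum the tick moves to -0.72 and both strands, at 0.21 and 0.25, move with it by the same amount, as any single factor per array makes them do.

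Other miRNAs give the setting of the serum increase. Of the leukocyte miRNAs all 4 were detected on every array, and their summed net signal in serum went from 1197 at 28 weeks to 1973 at 46 weeks. The sums given here are without scaling, and most of that rise lay in miR-223-3p, at 526 and 1306 net units. By contrast, miR-150-5p stood at 450 and 449 and miR-142-5p at 187 and 161. Myeloid miR-223-3p had a log2 difference of 1.49 and miR-142-3p, of hematopoietic cells, 0.90, while miR-142-5p stood at -0.03 and lymphocyte miR-150-5p at 0.18. The summed signal of the 4 erythrocyte miRNAs, nearly all of it from miR-451a, went from 37941 to 24713 net units. Of these, miR-144-3p and the dim miR-144-5p were at least 2-fold lower, at -1.32 and -1.29, as were 3.89% of all 822 miRNAs on this scale, while miR-451a stood at -0.46 and miR-486-5p at 0.32. The endothelial strands miR-126-3p and miR-126-5p were at 0.18 and -0.49, with a summed signal of 350 and 339. All markers of the leukocyte, erythrocyte and endothelial lists were detected in serum at both ages. Larger decreases than these lay in the striated muscle and hepatocyte lists. The 3 striated muscle miRNAs detected at both ages stood between -3.18 and -1.93, and the summed signal of that list went from 868 to 163 net units. Hepatocyte miR-122-5p stood at -2.90. In the other direction, both squamous miRNAs and 2 of the 4 columnar ones were at least 2-fold higher, beside 7.79% of all 822 miRNAs. The remaining columnar strands decreased, miR-194-5p by a log2 difference of -0.68 and miR-192-5p by one of -0.39. Without scaling, the increase of columnar miR-375-3p was 0.98, just short of 2-fold. The part of any of these lists in the increase of the cluster was not tested.

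Beside the miRNAs reported in Barrett progression or induced by inflammation, the serum increase of the cluster was among the larger ones. Of the 17 on that list, 16 were detected in serum at both ages, 3 at least 2-fold higher and 1 at least 2-fold lower, beside 7.79% and 3.89% of all 822 miRNAs, and their median was 0.45 against 0.05 for all of them. The 3 higher ones were the squamous miRNAs miR-205-5p and miR-203-3p and the columnar miRNA miR-215-5p, with log2 differences of 2.52, 1.92 and 1.42, and the lower one was miR-106b-5p at -1.0005. The inflammation-induced miRNAs miR-146a-5p, miR-146b-5p and miR-21a-5p stood at 0.65, 0.67 and 0.54, below both strands of the cluster, and dim miR-155-5p at 0.07 (spot-noise SD 0.41). In esophagus 15 of the 17 were detected at both ages, none passed 2-fold, beside 1.42% higher and 1.54% lower of all 843 miRNAs, and their median was -0.01, as was that of all of them.

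Both strands were brighter in serum than in esophagus at both ages. At 28 weeks miR-221-3p was 1.83-fold and miR-222-3p 3.57-fold higher in serum, log2 differences of esophagus minus serum of -0.87 (spot-noise SD 0.09) and -1.83 (spot-noise SD 0.16). At 46 weeks the excess in serum was 3.47-fold for miR-221-3p and 7.32-fold for miR-222-3p, log2 differences of -1.80 (spot-noise SD 0.11) and -2.87 (spot-noise SD 0.16). A line of 4-fold was passed by neither strand at 28 weeks, where 5.22% of 881 miRNAs were at least 4-fold higher in serum, and by miR-222-3p alone at 46 weeks, where 6.44% of 776 miRNAs were. Scaled to the median of all miRNA probes, miR-221-3p passed it at 46 weeks too, at -2.11. Both comparisons set total RNA of tissue against that of serum after different extractions.

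Of the other lists, some lay in the opposite direction to the cluster, some in the same direction and some were mixed. Esophagus minus serum, endothelial miR-126-3p stood at 0.95 at both ages and smooth muscle miR-145a-5p at 3.95 and 3.47. The inflammation-induced miR-146a-5p was at 2.87 and 2.05 and miR-21a-5p at 1.46 and 1.51, which were also the medians of the list of Barrett progression or inflammation. From that list, miR-25-3p stood at -3.39 and -2.92, miR-93-5p at -2.05 and -1.73 and miR-106b-5p at -2.32 and -1.13, on the side of the cluster. The leukocyte list was mixed, with medians of -0.06 and -0.53 at 28 and 46 weeks: miR-150-5p stood at -1.69 and -2.13 and miR-223-3p at -0.25 and -1.40, but miR-142-3p at 2.05 and 1.23 and miR-142-5p at 0.13 and 0.35. The 3 detected erythrocyte miRNAs were higher in serum at both ages, as the cluster was, with medians of -4.92 and -5.12. Hepatocyte miR-122-5p stood at -4.68 at 28 weeks and at 0.54 at 46 weeks.

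With the BLANK mean subtracted, the strands of the cluster moved together with age but not between sample types. The log2 ratio of the net signals of miR-222-3p and miR-221-3p on the same array does not depend on any factor by which an array is scaled, and because probes differ in brightness only its change between arrays is read. It was -2.45 (spot-noise SD 0.15) and -2.53 (spot-noise SD 0.16) in esophagus at 28 and 46 weeks, and -1.49 (spot-noise SD 0.11) and -1.45 (spot-noise SD 0.11) in serum. With age it thus changed by -0.07 (spot-noise SD 0.22) in esophagus and 0.04 (spot-noise SD 0.16) in serum, within the spot noise. Esophagus minus serum it was -0.96 (spot-noise SD 0.19) at 28 weeks and -1.08 (spot-noise SD 0.20) at 46 weeks, so that relative to miR-221-3p the signal of miR-222-3p was lower in esophagus by several times the spot noise at both ages.

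That gap rested on the treatment of background, since miR-222-3p was dim in esophagus. It was -1.25 and -1.28 at 28 and 46 weeks with the mean of the No Probe spots subtracted and -0.61 and -0.79 with the local background subtracted. With normexp correction and its offset of 50, which is larger than the net signal of miR-222-3p in esophagus, it was -0.001 and -0.009. The change of the ratio with age also moved: with the local background subtracted it was -0.33 in esophagus and -0.14 in serum. With normexp and its offset these changes were -0.24 and -0.23, and with the No Probe mean subtracted 0.02 and 0.05. The local background around miR-221-3p read 72.9 in esophagus at 28 weeks and 53.6 to 64.4 on the other arrays, against array medians of 42.1 to 51.7, and that around miR-222-3p read 40.6 to 51.6.

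**Figure D4:**
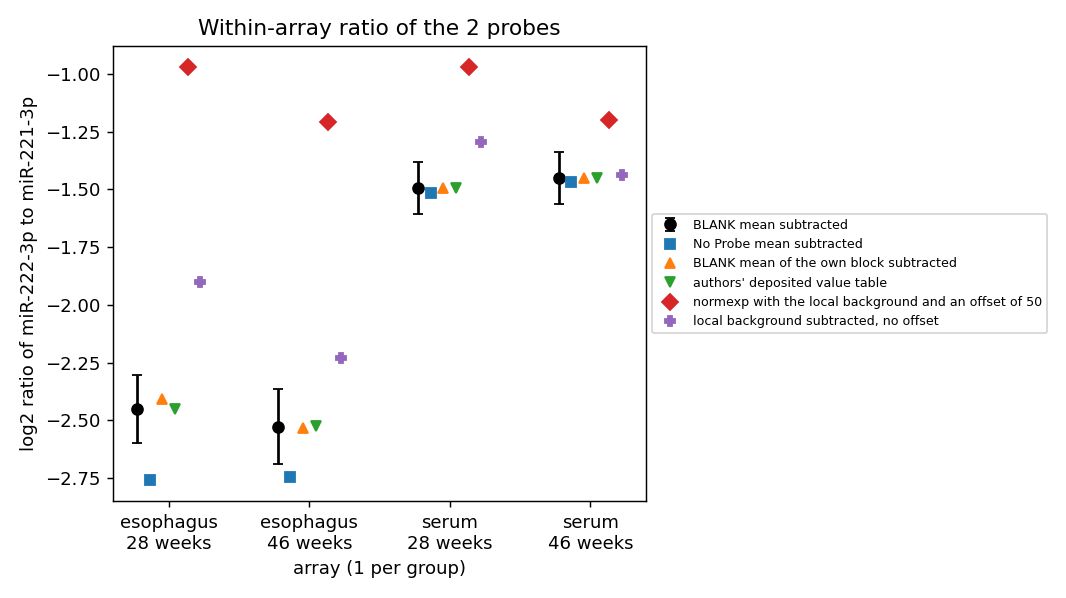
Log2 ratio of miR-222-3p to miR-221-3p (vertical axis) on each of the 4 arrays (horizontal axis) under 6 treatments of background; error bars on the black points are the spot-noise SD. The black points lie at -2.45 and -2.53 in esophagus and at -1.49 and -1.45 in serum, while the points with the offset of 50 lie at the same height in both sample types at each age.

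The miRNAs whose pattern was most like that of each strand were found from the root mean square difference of log2 net signal over the 4 arrays, each probe centred on its own mean, among 730 others detected on all arrays. Nearest to miR-221-3p were miR-320-3p, miR-5131 and miR-1981-5p, at 0.12, 0.13 and 0.14, although miR-1981-5p, at 6.18 and 5.94 net units in esophagus, lay below the 95th percentile of No Probe spots there. Nearest to miR-222-3p were miR-92b-3p, miR-6538 and miR-328-3p, at 0.15, 0.18 and 0.19. The cluster partners stood 0.51 apart, which put miR-222-3p at position 126 in the order of likeness to miR-221-3p and miR-221-3p at position 42 in that of miR-222-3p, where the medians over all others were 0.81 and 1.25.

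A part of the place of the probes on the array in these differences was not tested, and the medians of their blocks are given instead. The 25 other miRNAs detected in block 15, which holds miR-221-3p, had a median serum difference with age of -0.10. The 29 in block 31, which holds miR-222-3p, had one of 0.15, and all miRNAs one of 0.05. Esophagus minus serum, the medians at 28 and 46 weeks were 0.49 and 0.36 in block 31 and 0.16 and 0.12 in block 15. They were 0.02 and 0.08 for all miRNAs. With the BLANK mean of the own block subtracted, an alternative chosen after the data were seen, the serum differences of miR-221-3p and miR-222-3p with age were 0.94 and 0.99.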

How the data were processed

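The deposited scanner files give intensity at 635 nm, per the file headers, as a median for each of 3200 spots and a median for its surroundings, joined from 3 scanner gains by a fitted line and neither background-corrected nor normalized. Per the labels' protocols, total RNA was labelled with Hy5 for Toray 3D-Gene arrays of 1 colour. The authors' deposited value table holds processed linear intensities, proportional to the net signal for these probes. Net signal was the spot median minus the BLANK mean. Differences are of log2 net signal after each array was divided by the median of the miRNAs detected on both arrays. The local background was kept for alternatives because earlier results of these data showed it raised around bright spots. The members, lists and fold lines of 2 and 4 were chosen with earlier results of these data known. Named were the members, their other strands, seed relatives, list members and the 3 miRNAs most like each member. Array names miR-126, miR-142 and miR-486 were used as written, and the miR-486-5p probe also reads miR-3107-5p. The calculation was tested on simulated data. Tools were R 4.3.3, limma 3.58.1 and jsonlite 2.0.0 for normexp, and Python 3.11.15 with pandas 2.3.3, numpy 2.4.6 and matplotlib 3.10.9. Alternatives were other scalings (none, spike-in spots, bright or all miRNAs, quantile with a floor of 1 unit), other background corrections and the authors' table. A spot marked bad on the esophagus array at 28 weeks, of neither member, was left out. The number of arrays limits the precision.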

Additional observations from a re-analysis of the deposited data

Results flagged for a closer look

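The age differences of both strands had opposite signs in the sample types. On the log2 scale, 46 minus 28 weeks came to 0.98 in serum and -0.15 in esophagus for miR-221-3p, and to 1.02 in serum and -0.23 in esophagus for miR-222-3p. The serum differences exceeded the esophageal ones by 1.13 (spot-noise SD 0.15) and 1.25 (spot-noise SD 0.23), with 1 array behind each group. Whether the sample types differ was not tested. The esophageal values lay within 2 spot-noise SDs of 0 and were 0.10 and 0.026 without scaling.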

How the results depend on the processing

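All values here are log2 differences of miR-221-3p and then miR-222-3p. No paired analysis was possible because each group held 1 array, and for the same reason no replicate could be left out. The direction was kept by both strands under every alternative in serum and between sample types, while in esophagus it turned without scaling. Without scaling, the age differences were 0.80 and 0.84 in serum and 0.10 and 0.026 in esophagus, and miR-221-3p stood at -1.02 for esophagus minus serum at 28 weeks. On the spike-in scale they were 0.21 and 0.25 in serum with age, and -1.41 and -2.37 for esophagus minus serum at 28 weeks, where miR-222-3p then passed 4-fold. In the authors' table the serum age differences were 0.67 and 0.72. With normexp, the local background and quantile normalization, miR-222-3p stood at 0.59 in serum with age and at -1.58 for esophagus minus serum at 46 weeks, no longer past 4-fold. The same setting gave -0.66 and -0.74 at 28 weeks and -0.053 for miR-221-3p with age in esophagus. With the No Probe mean subtracted, miR-221-3p stood at -0.30 in esophagus with age, and esophagus minus serum was -0.42 and -1.67 at 28 weeks and -1.68 for miR-221-3p at 46 weeks. Scaled to all probes, miR-221-3p stood at -0.045 in esophagus with age and at -1.03 for esophagus minus serum at 28 weeks, and the values at 46 weeks were -2.11 and -3.18, where miR-221-3p then passed 4-fold as well. Scaled to bright miRNAs, miR-221-3p was at -1.91 at 46 weeks, and with quantile normalization miR-222-3p was at -3.05.

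The log2 ratio of miR-222-3p to miR-221-3p, esophagus minus serum at 28 and 46 weeks, moved from -0.96 and -1.08 to -1.25 and -1.28 with the No Probe mean, to -0.61 and -0.79 with the local background, and to -0.001 and -0.0085 with the normexp offset. These alternatives for the ratio were chosen after the data were seen.

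Background counts moved more than 1.5 times. The 64 higher and 32 lower serum miRNAs became 39 and 55 without scaling, 5 and 245 on the spike-in scale, 10 and 10 with normexp and 31 and 89 in the authors' table. The 12 higher and 13 lower in esophagus became 30 and 6 without scaling and 4 and 2 with normexp, and those lower became 4 with the No Probe mean and 28 in the authors' table. The 46 at least 4-fold higher in serum at 28 weeks became 79 on the spike-in scale, 30 with the No Probe mean and 13 with normexp, and the 50 at 46 weeks became 16 with normexp. Signal over background limits miR-222-3p in esophagus, at 22.4 and 22.8 net units, and both other strands on all arrays.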
